A study of Mus musculus with 12 samples.

Results

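The genes described here are the water channels (aquaporins) and the receptors for the antidiuretic hormone vasopressin in mouse kidney: Aqp1, Aqp2, Aqp3, Aqp4, Aqp6, Aqp7, Aqp11, Avpr1a and Avpr2. They were taken by name from the gene tables, 9 genes of 55401, consisting of 7 aquaporins and 2 receptors. Whole-kidney RNA was sequenced from 12 male C57BL6 mice, aged 8 weeks, as 1 library per mouse. The 6 vehicle-treated mice had 1 intraperitoneal injection of 15% 2-hydroxypropyl-beta-cyclodextrin, and the 6 SK-124-treated mice had 1 injection of SK-124 at 40 mg/kg. SK-124 is an inhibitor of the salt-inducible kinases SIK2 and SIK3, which protein kinase A (PKA) restrains downstream of cAMP-raising hormones, so the comparison asks how acute SIK inhibition changes the kidney transcriptome. No strain difference, allele or other agent separated the groups, and the time from injection to collection of the sequenced kidneys is not given in the sources used here.

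Vasopressin acts on the collecting duct through the V2 receptor, encoded by Avpr2, which couples to the stimulatory G protein, adenylyl cyclase, cAMP and PKA. In principal cells PKA phosphorylates the AQP2 water channel, which then moves to the apical membrane, and over a longer time raises transcription of Aqp2. Water leaves the cell again through AQP3 and AQP4 in the basolateral membrane, while AQP1 carries water across the proximal tubule and thin descending limb.

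The total of expected counts (estimated reads per gene) was between 19244227 and 19771802 per mouse. The 10 genes with the most counts took 39.9% to 43.2% of counts in the vehicle group, whereas the SK-124 group split by this measure, with 44.4% to 46.8% in mice 1 to 3 and 38.6% to 40.2% in mice 4 to 6. Markers of collecting duct principal cells, intercalated cells, the proximal tubule and the other nephron segments all passed the expression filter. Counts were scaled to the library with edgeR's TMM method and expressed as CPM, a share of the scaled library, and a gene was called changed at a Benjamini-Hochberg adjusted p (FDR) under 0.05 in edgeR's quasi-likelihood test over 14159 genes.

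The 250 bases before the RefSeq start of Aqp2 and Aqp3 (GRCm38.p6) are shown because both genes belong to principal cells, and Aqp2 passed the test between groups while Aqp3 did not. The ratio of the pair is given further on. The Aqp2 window is chr15:99578806-99579055 on the plus strand and the Aqp3 window is chr4:41098184-41098433 on the minus strand. Capitals mark the core of the cAMP response element (CRE), the site of CREB-family factors, searched as TGACG and, on the other strand, CGTCA.
Aqp2: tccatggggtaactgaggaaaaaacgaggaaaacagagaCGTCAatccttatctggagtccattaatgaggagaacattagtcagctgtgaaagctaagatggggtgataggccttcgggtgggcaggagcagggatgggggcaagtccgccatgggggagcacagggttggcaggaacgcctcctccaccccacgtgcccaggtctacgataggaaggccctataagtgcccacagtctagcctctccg
Aqp3: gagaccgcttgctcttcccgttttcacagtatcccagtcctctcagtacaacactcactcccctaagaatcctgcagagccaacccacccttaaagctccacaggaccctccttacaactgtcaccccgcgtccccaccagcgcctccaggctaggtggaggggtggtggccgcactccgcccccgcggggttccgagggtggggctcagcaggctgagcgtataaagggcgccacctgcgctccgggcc
The CRE core of Aqp2 began 211 bases before the start, and the Aqp3 window held none. Of the 8 genes with a promoter entry, 2 held the core, Aqp2 and Avpr1a, against 17.8% of all 32851 windows of this length. None held the full element TGACGTCA, which includes the core and was in 1.55% of all windows. The Aqp2 window also held an E-box (CACGTG, in 6.02% of all windows) and a GATA letter string (AGATAA or TTATCT, in 9.99%), neither of which overlapped the CRE core, and the E-box was also in the Aqp6 window and the GATA string in 1 window of Aqp7. These are matches of letters and no measure of binding.

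Aqp2 mRNA was higher and Avpr2 mRNA lower in SK-124-treated kidneys, and Aqp11 was slightly lower. The other 6 genes did not pass the test. All 9 genes passed the expression filter. Of the 9 genes, 3 were called, where 24.4% of all tested genes were called. By direction, 1 was higher and 2 were lower, against 10.8% and 13.5% of all genes, so the share of called genes in the group was near the background. The median log2 fold change was -0.17 over the 9 genes and -0.01 over all tested genes. Avpr2 was the 1 gene of the 9 whose groups did not overlap in CPM, which held for 13.0% of all tested genes.

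**Figure D1:**
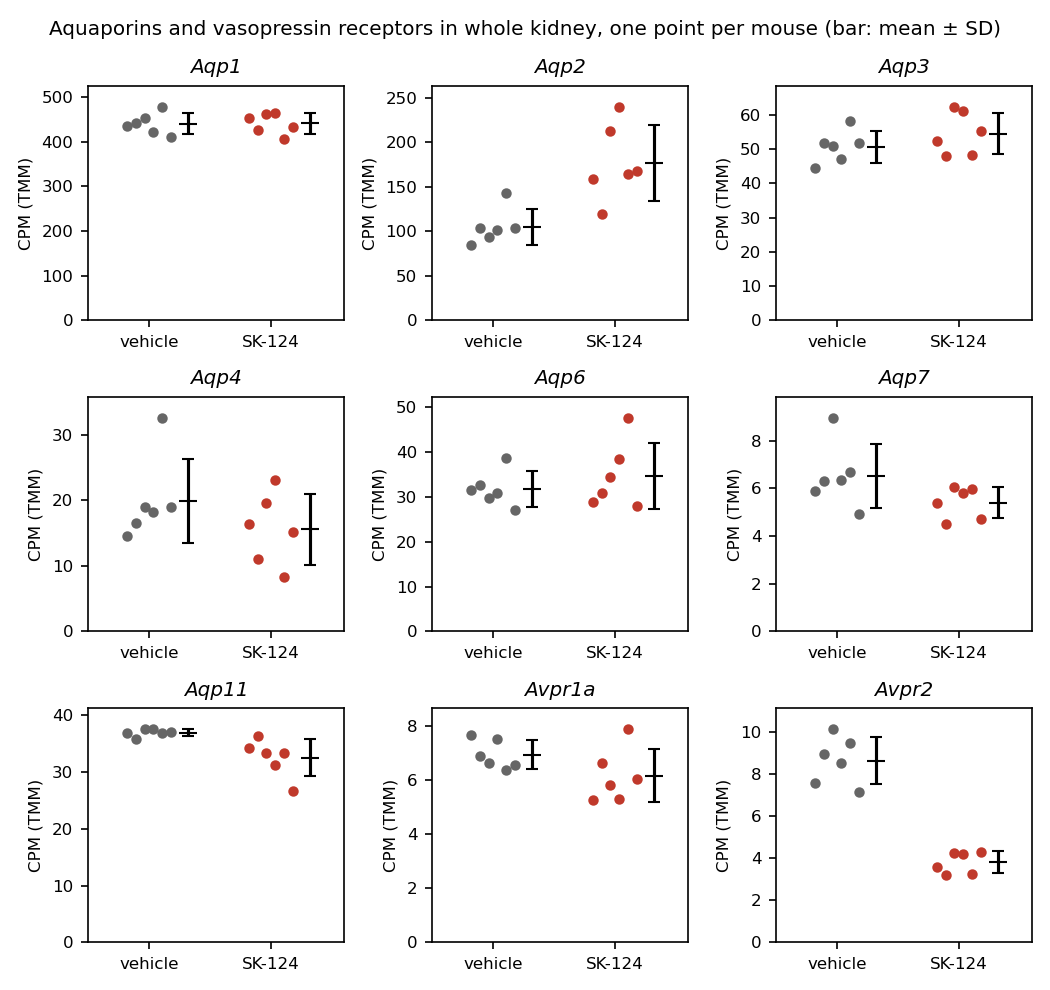
TMM-normalized CPM of each of the 9 genes (vertical axis, from 0) in the 6 vehicle-treated (grey) and 6 SK-124-treated (red) mice, 1 point per mouse in the order of mouse number, with the mean ± SD as the black bar. The groups are apart for Avpr2 and overlap for the other 8 genes, and for Aqp2 5 of 6 SK-124-treated mice lie above the highest vehicle-treated mouse.

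Aqp2 (chr15:99579055-99584547, plus strand, GRCm38) encodes the vasopressin-regulated channel of the principal cell. Its CPM in vehicle-treated mice had a lowest, median and highest value of 85.1, 102 and 143. With SK-124 the values were 119, 166 and 239. All 6 SK-124-treated mice were above the vehicle median, and the groups overlapped through a single crossing, vehicle-treated mouse 5 at 143 CPM above SK-124-treated mouse 2 at 119 CPM. The level rose from 105 ± 20.0 to 177 ± 42.7 CPM (mean ± SD, n = 6 per group). The log2 fold change was 0.75 ± 0.14 (SE), or 1.69-fold, with an FDR of 0.000852 in edgeR's quasi-likelihood test. A two-sided exact permutation of the group labels, on log2(CPM + 0.5), gave p = 0.004329, and its smallest possible p is 0.0021645. The expected counts behind these values were between 1723 and 3017 in vehicle-treated mice and between 2040 and 4832 in SK-124-treated mice. Taken alone against all vehicle-treated mice, SK-124-treated mice 1 to 3 gave 0.64 on the log2 scale (FDR 0.0167, edgeR) and mice 4 to 6 gave 0.86 (FDR 0.00106).

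Aqp3 (chr4:41092722-41098183, minus strand) encodes the basolateral aquaglyceroporin of the same cells, which passes water and glycerol. Its lowest, median and highest CPM was 44.5, 51.3 and 58.3 in vehicle-treated mice and 48.0, 53.8 and 62.2 in SK-124-treated mice. The ranges overlapped. Between groups the log2 fold change was 0.11 (95% interval -0.06 to 0.27, FDR 0.364).

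Aqp4 encodes the other basolateral channel of principal cells, most abundant towards the inner medulla, and also a channel of the proximal tubule S3 segment in mice. Its CPM was 14.5, 18.5 and 32.5 (lowest, median and highest) in vehicle-treated mice and 8.27, 15.7 and 23.1 in SK-124-treated mice. The spread between mice was wide, with a coefficient of variation of 32.0% and 34.9%, and 2 SK-124-treated mice lay below every vehicle-treated mouse. The estimate of -0.36 on the log2 scale had a 95% interval of -0.81 to 0.10 (FDR 0.261), and leaving out the highest value, that of vehicle-treated mouse 5, gave -0.16 (FDR 0.611).

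Aqp1 (chr6:55336432-55348555, plus strand), the channel of the proximal tubule and thin descending limb, was the most abundant of the 9. Its CPM was 412, 439 and 477 (lowest, median and highest) in vehicle-treated mice and 407, 444 and 464 in SK-124-treated mice. The groups lay on top of each other, with a log2 fold change of 0.00 (95% interval -0.11 to 0.12, FDR 0.964). Scaling by library totals alone shifted all genes together, with their median at -0.12, Aqp1 at -0.11 and Aqp3 at -0.01, and neither gene passed the test under either scaling.

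Aqp6 (chr15:99601400-99605477, plus strand) encodes an intracellular channel of intercalated cells that passes anions. It lies in tandem with Aqp2, with the little-expressed Aqp5 between them: 6234 bases separate Aqp2 from Aqp5, and 6570 separate Aqp5 from Aqp6. Aqp6 CPM was 27.0, 31.3 and 38.8 in vehicle-treated mice and 27.9, 32.6 and 47.5 in SK-124-treated mice, in the order lowest, median and highest. The groups overlapped, and the log2 fold change was 0.13 (95% interval -0.12 to 0.37, FDR 0.475), turning to -0.03 on the TPM scale with limma. Aqp5 stayed between 0.050 and 0.25 CPM in all mice and was not tested.

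Aqp7 (chr4:41033074-41048139, minus strand) encodes the aquaglyceroporin of the proximal straight tubule, which recovers filtered glycerol, and lies 44582 bases from Aqp3. Its CPM was 4.93, 6.32 and 8.94 (lowest, median and highest) in vehicle-treated mice and 4.50, 5.59 and 6.05 in SK-124-treated mice. No SK-124-treated mouse was above the vehicle median, yet the ranges overlapped. Its log2 fold change was -0.27 (95% interval -0.53 to 0.00, FDR 0.144), and with library totals alone it was -0.37 (FDR 0.0386). With 77 to 175 counts per mouse, relative counting error is larger here than for the abundant channels.

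Aqp11 (chr7:97724006-97738289, minus strand) encodes a channel of the endoplasmic reticulum of proximal tubule cells. The vehicle-treated mice were close together, at 35.8, 37.0 and 37.6 CPM (lowest, median and highest), a coefficient of variation of 1.72%. The SK-124-treated mice were at 26.7, 33.4 and 36.3 CPM, and 5 of 6 were below every vehicle-treated mouse. The fall was small, a log2 fold change of -0.18 ± 0.06 (SE), or 1.14-fold lower, with an FDR of 0.0448 in edgeR and p = 0.004329 in the exact permutation test. The FDR was close to the threshold, and the call was lost when any of the 6 vehicle-treated mice or SK-124-treated mouse 3, 4, 5 or 6 was left out, with FDRs up to 0.0919. Over all 12 fits without 1 mouse the log2 fold change was -0.22 to -0.13, the smallest fall being without SK-124-treated mouse 6. With mice 1 to 3 as the only SK-124-treated mice, Aqp11 was at -0.09 on the log2 scale (FDR 0.373).

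**Figure D2:**
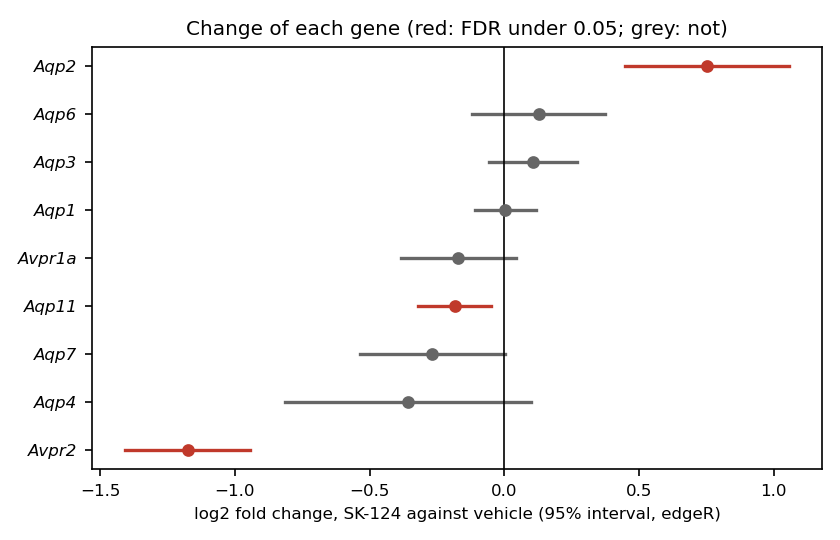
Log2 fold change of each gene, SK-124-treated against vehicle-treated mice (horizontal axis, points), with its 95% interval (lines) from edgeR, 6 mice per group. Aqp2 at 0.75, Aqp11 at -0.18 and Avpr2 at -1.17 had an FDR under 0.05 (red), and the intervals of the other 6 genes (grey) include 0.

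Avpr2 (chrX:73892102-73895502, plus strand) encodes the V2 receptor, found in the collecting duct, connecting tubule, distal convoluted tubule and thick ascending limb. Its CPM was 7.16, 8.72 and 10.1 (lowest, median and highest) in vehicle-treated mice and 3.21, 3.90 and 4.31 in SK-124-treated mice. Every SK-124-treated mouse was below every vehicle-treated mouse. The gap between the groups was wider than the range within the SK-124 group, but slightly narrower than that within the vehicle group. The level fell from 8.62 ± 1.12 to 3.81 ± 0.51 CPM (mean ± SD, n = 6 per group). The log2 fold change was -1.17 ± 0.11 (SE), or 2.26-fold lower, with an FDR of 4.96e-07 in edgeR's quasi-likelihood test. The exact permutation test gave p = 0.0021645, the smallest it can give. A change this large was uncommon: 3.04% of tested genes passed the FDR threshold and moved, up or down, by more than 1 on the log2 scale. The expected counts were low, 151 to 199 in vehicle-treated and 55 to 85 in SK-124-treated mice. The fall was present in SK-124-treated mice 1 to 3 (-1.22, FDR 4.47e-05) and in mice 4 to 6 (-1.13, FDR 7.99e-05).

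Avpr2 lies within the span of genes on the opposite strand. Of its 3401 bases, 2347 are exonic in both Avpr2 and Arhgap4, and use of strand in the counting is not stated, so reads of these genes cannot be told apart there with certainty. The posterior SD that RSEM gave to the Avpr2 count was 0 in every mouse, as it was for all 9 genes. Arhgap4 was also lower with SK-124, by less, with a log2 fold change of -0.44 (FDR 0.00248), and L1cam, which spans the same bases without exonic overlap, was at -0.08 (FDR 0.481).

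Avpr1a (chr10:122448499-122453452, plus strand) encodes the V1a receptor, which couples to phospholipase C and calcium and is found in vessels and in intercalated cells. Its CPM was 6.36, 6.76 and 7.65 (lowest, median and highest) in vehicle-treated mice and 5.27, 5.93 and 7.87 in SK-124-treated mice. Although 4 of 6 SK-124-treated mice were below every vehicle-treated mouse, the single highest value of all was also in the SK-124 group. The log2 fold change was -0.17 (95% interval -0.38 to 0.04, FDR 0.249).

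Levels of different genes were set side by side in TPM, which divides by transcript length. In vehicle-treated mice the order by mean TPM was Aqp1 (167 ± 14.1, SD), Aqp2 (80.1 ± 18.9), Aqp3 (31.1 ± 4.05), Aqp6 (21.1 ± 3.44), Aqp11 (17.3 ± 1.29), Avpr2 (4.73 ± 0.53), Aqp4 (4.05 ± 1.50), Aqp7 (3.26 ± 0.59) and Avpr1a (2.59 ± 0.19). The ranges of neighbours overlapped for Aqp6 and Aqp11 and for each neighbouring pair from Avpr2 down to Avpr1a. In SK-124-treated mice Aqp2 stood at 122 ± 35.1 TPM, overlapping Aqp1 at 151 ± 15.6 TPM, although Aqp1 remained higher in 5 of 6 mice. The Aqp2 groups overlapped in TPM by more than the single crossing in CPM (vehicle-treated 64.7 to 115, SK-124-treated 71.05 to 175). By mean TPM, Avpr2 went from rank 6 to rank 9, at 1.88 ± 0.32 TPM, overlapping Avpr1a at 2.09 ± 0.48 TPM. Avpr1a was higher than Avpr2 in only 2 of 6 SK-124-treated mice, so this order holds for the means alone. The groups of Avpr2 did not overlap in TPM, as in CPM (4.13 to 5.42 against 1.42 to 2.30). Aqp2 made up 24.7% of the mean TPM of the 7 aquaporins in vehicle-treated mice and 35.5% in SK-124-treated mice, and Aqp1 51.6% and 44.0%.

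**Figure D3:**
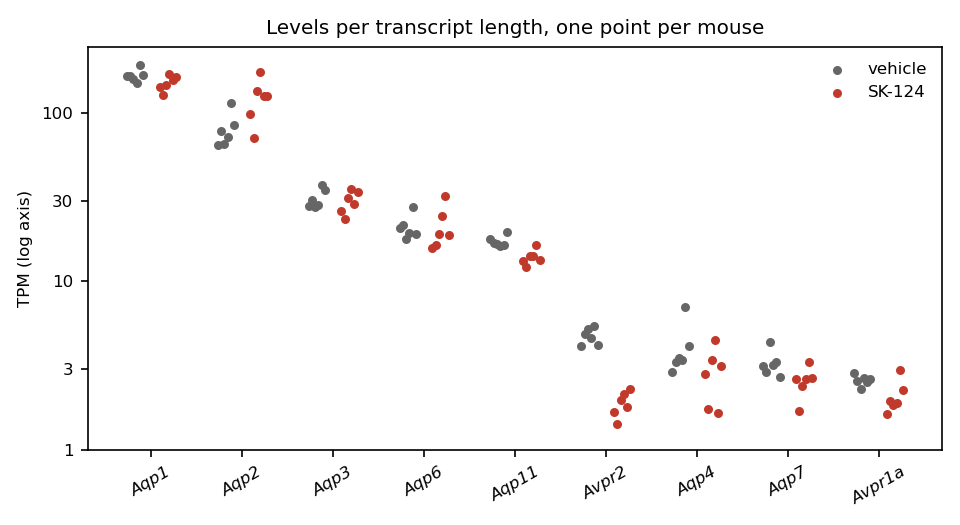
TPM of each gene on a log axis, ordered by the vehicle mean, with 1 point per mouse (grey, vehicle-treated; red, SK-124-treated; 6 each). Aqp2 approaches Aqp1 in SK-124-treated mice, with means of 122 and 151. Avpr2 falls from a mean of 4.73 to 1.88, the lowest mean of the 9, with its points overlapping those of Avpr1a.

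In whole-kidney RNA, fewer cells of a type and less RNA per cell cannot be told apart. The 8 principal cell and connecting tubule markers (Hsd11b2, Fxyd4, Scnn1b, Scnn1g, Gata3, Tfcp2l1, Kcne1 and Npnt) were therefore set beside Aqp2 and Avpr2. None was at 0 throughout, and their summed CPM was 483 to 510 in vehicle-treated and 426 to 489 in SK-124-treated mice. Of the 8, 1 was called, Hsd11b2, the glucocorticoid-inactivating enzyme of these cells, which was lower (-0.35, FDR 9.99e-05). The median log2 fold change of the 8 was -0.11, and a lower reference raises any ratio to it. Fxyd4, Scnn1b and Scnn1g are also among the vasopressin-responsive transport genes listed further on, and Gata3 and Tfcp2l1 among the transcription factors tied to Aqp2. Relative to the mean of the 8 markers within each library, Aqp2 was at 1.36 ± 0.22 log2 units in vehicle-treated mice and 2.21 ± 0.33 in SK-124-treated mice (mean ± SD, n = 6 each). The difference was 0.85, beside 0.75 for the level, with p = 0.004329 in the exact permutation test, adjusted over both genes 0.004329. Avpr2 on the same scale was at -2.16 ± 0.17 and -3.13 ± 0.16 log2 units, with no overlap. Its difference was -0.97, beside -1.17 for the level, with exact permutation p = 0.0021645, adjusted 0.004329. Since Avpr2 is also found in the distal convoluted tubule and thick ascending limb, this ratio does not hold its source cells fixed. Aqp3 was chosen as a second reference after the values had been seen. The ratio of Aqp2 to Aqp3 CPM was 1.83 to 2.45 in vehicle-treated and 2.48 to 3.92 in SK-124-treated mice, and that of Avpr2 to Aqp3 0.139 to 0.198 and 0.0669 to 0.0778, so neither ratio overlapped between groups.

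**Figure D4:**
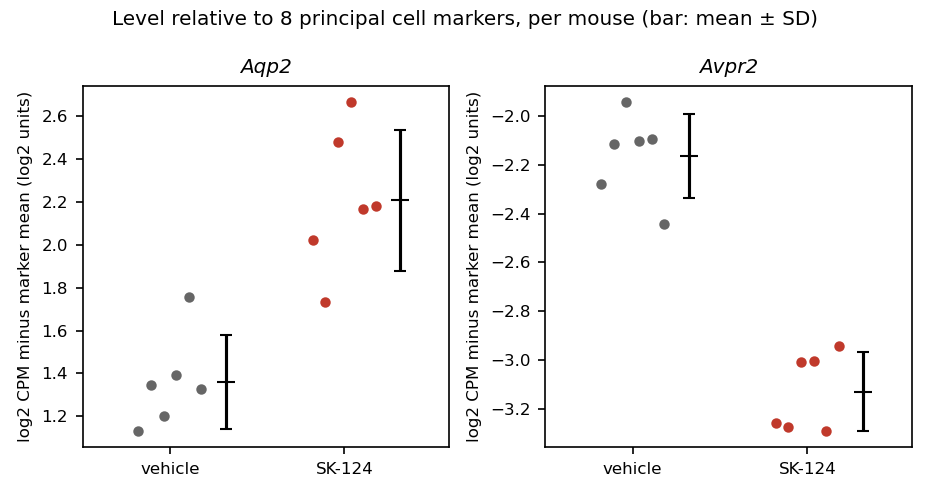
Log2 CPM of Aqp2 (left) and Avpr2 (right) minus the mean log2 CPM of 8 principal cell markers in the same library (vertical axes, log2 units, not from 0), 1 point per mouse with mean ± SD. Aqp2 is higher in SK-124-treated mice with a small overlap (1.76 in vehicle-treated mouse 5, 1.73 in SK-124-treated mouse 2), and Avpr2 is lower in all 6.

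Markers of other cell types are given as counts of called genes, where 10.8% of all tested genes were higher and 13.5% lower. For intercalated cells, 3 of 9 markers were higher (Slc4a9, Slc26a4 and Foxi1) and 3 lower (Slc4a1, Atp6v1b1 and Insrr), with summed CPM of 305 to 331 and 289 to 337. For the thin limb and inner medulla, 1 of 7 markers was called, Epha7, which was lower, and the summed CPM was 229 to 320 in vehicle-treated and 213 to 451 in SK-124-treated mice. For the proximal tubule S3 segment, home of Aqp7, 3 of 6 were higher (Cyp7b1, Slc5a8 and Atp11a), with sums of 1743 to 2128 and 2162 to 2677. For segments S1 and S2, 1 of 7 was lower (Slc13a3), and for the thick ascending limb 2 of 5 were higher (Cldn16 and Ptger3). Of 6 endothelial markers 2 were lower (Ehd3 and Kdr), and of 5 vascular smooth muscle markers 2 were higher (Tagln and Acta2). None of the markers of the distal convoluted tubule (4), urothelium (6), red blood cells (5) or immune cells (6) was called. The part of these markers in the results for Aqp2, for its ratio to principal cell markers and for the other aquaporins was not tested.

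The 7 remaining aquaporin and neurohypophysial receptor genes listed (Mip, Aqp5, Aqp8, Aqp9, Aqp12, Avpr1b and Oxtr) did not pass the expression filter. Their summed CPM was 0.47 to 1.07 in vehicle-treated mice and 0.55 to 0.94 in SK-124-treated mice, and Mip had no count in any mouse.

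The genes listed around these channels and receptors are read against the 10.8% of all tested genes that were higher and the 13.5% that were lower, with no test of any list. The lists were chosen with earlier results of these data known, so a higher share in a list is no result about that list. Of 17 genes from the receptor's G protein to PKA, with the arrestins and kinases that switch the receptor off, 1 was higher, 7 were lower and 9 did not pass, with a median log2 fold change of -0.10. Adcy3, an adenylyl cyclase of low level here, had the largest change of those named (-0.80, FDR 0.0177). Arrb1 (-0.23, FDR 0.0218) and Arrb2 (-0.32, FDR 0.0223), the arrestins that desensitize and internalize receptors, and Prkaca (-0.21, FDR 0.0238), a catalytic subunit of PKA, were also lower. Prkar1a, a regulatory subunit that holds PKA inactive, was higher (0.13, FDR 0.0431). Gnas, the stimulatory G protein (0.07, FDR 0.367), and Adcy6, the main cyclase of the principal cell's vasopressin response (0.04, FDR 0.745), did not pass.

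Of 25 genes for AQP2 trafficking and turnover, 23 did not pass, 1 was higher and 1 lower, where 24.4% of all tested genes were called, with a median of 0.06. Rab5a, of early endosomes, was higher (0.21, FDR 0.0104), and Cav1, the caveolar protein, was lower (-0.24, FDR 0.0180).

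Of 26 transcription factors tied to Aqp2, 7 were higher and 7 lower, against 10.8% and 13.5% of all tested genes, with a median of -0.04. Among the higher were Cebpb (from 15.1 ± 2.60 to 61.5 ± 12.2 CPM, mean ± SD, n = 6 each, log2 fold change 2.02), Crem, a cAMP-inducible relative of CREB that yields activating and repressing forms (from 5.11 ± 0.67 to 17.1 ± 1.91 CPM, 1.74), Klf15 (1.46) and Ehf (0.64). In each of these 4 the groups did not overlap, and the edgeR FDR was 3.94e-05 or lower. Lower were Gata2, a factor on which collecting duct Aqp2 depends (from 20.0 ± 1.22 to 13.0 ± 1.57 CPM, -0.61), Nr3c1, the glucocorticoid receptor (-0.62), Nr3c2, the mineralocorticoid receptor (-0.67), and Esrra (-0.49), again without overlap and with FDRs of 0.000127 or lower. Creb1 (-0.04, FDR 0.735), its coactivator Crtc2, a SIK substrate (-0.02, FDR 0.884), Elf3 (-0.12, FDR 0.443), Gata3 (-0.16, FDR 0.326) and Nfat5, the tonicity-responsive factor (-0.02, FDR 0.881), did not pass.

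Among receptors that oppose or modulate vasopressin, 5 of 14 tested were higher and 5 lower, against 10.8% and 13.5% of all tested genes, with a median of -0.12. Ednrb, the endothelin B receptor, rose from 9.66 ± 1.53 to 24.4 ± 4.50 CPM (mean ± SD, n = 6 each; log2 fold change 1.33, FDR 4.58e-07). Ptger3, the prostaglandin E receptor EP3, which lowers cAMP, was higher (0.45, FDR 0.00108), as were Egfr (0.42, FDR 0.000153) and the low-level Bdkrb2, the bradykinin B2 receptor (1.21, FDR 0.00189). Ptger1, the EP1 receptor, fell from 16.2 ± 3.69 to 6.62 ± 2.24 CPM (-1.29, FDR 7.91e-05). Casr, the calcium-sensing receptor (-0.70, FDR 0.00161), Npr1, a natriuretic peptide receptor (-0.46, FDR 6.64e-05), and Adra2b (-0.34, FDR 0.0113) were lower as well.

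Of 12 other vasopressin-responsive transport genes, 1 was higher and none lower, against the same shares, with a median of 0.15. That gene was Slc5a3, the myo-inositol transporter of cells under osmotic load, which rose from 34.4 ± 2.64 to 95.2 ± 11.9 CPM (1.47, FDR 7.46e-10, mean ± SD, n = 6 each, edgeR). The epithelial sodium channel subunits Scnn1a (0.05, FDR 0.602) and Scnn1g (0.14, FDR 0.187) and the urea transporter gene Slc14a2 (0.21, FDR 0.459) did not pass. Of 9 genes tested for handling glycerol or hydrogen peroxide, which AQP3, AQP7 and AQP11 pass, 3 were higher and 1 lower, again against 10.8% and 13.5% of all tested genes, with a median of 0.12. Pnpla2, the first lipase in releasing fatty acids and glycerol from triglyceride, was higher (1.06, FDR 2.06e-09), as were Gpd2 (0.35, FDR 0.000647) and the glycerol kinase gene Gk (0.34, FDR 0.00115), and Gpd1 was lower (-0.21, FDR 0.0179).

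**Figure D5:**
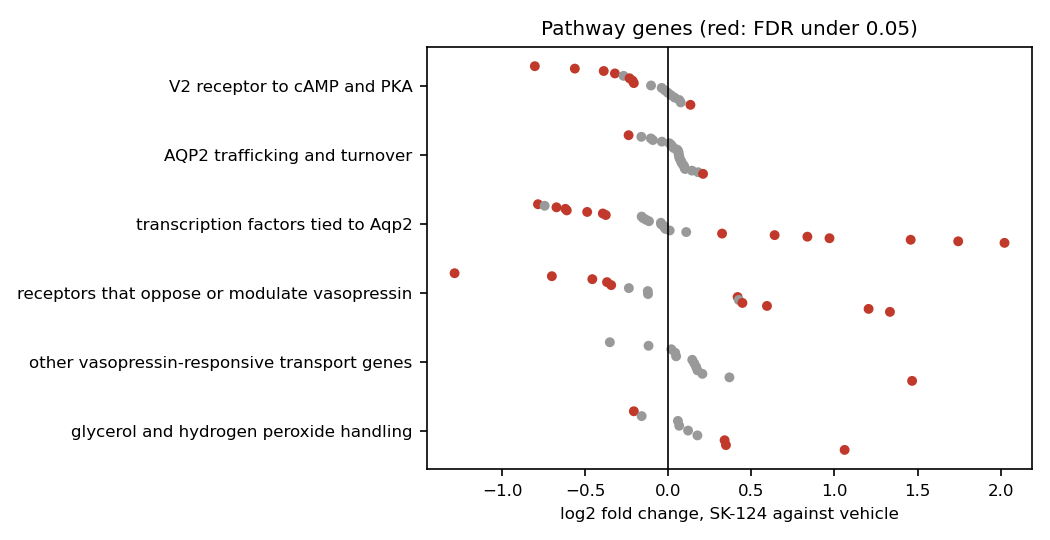
Log2 fold change, SK-124-treated against vehicle-treated mice (horizontal axis), of every tested gene in 6 lists of pathway genes (rows, 1 point per gene), with an edgeR FDR under 0.05 in red and the rest in grey. The trafficking genes lie near 0 (-0.24 to 0.21), while transcription factors run from -0.78 to 2.02 and modulating receptors from -1.29 to 1.33.

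Relations between mice of the same group were computed for Aqp2 with Aqp3, Aqp4 and Avpr2, and none passed after adjustment. For Aqp2 with Aqp3, Pearson's r on log2(CPM + 0.5) within the 6 vehicle-treated mice was 0.887 (exact permutation p = 0.0208, Spearman's rho 0.886, p = 0.0333) and within the 6 SK-124-treated mice 0.879 (exact permutation p = 0.0250, rho 0.886, p = 0.0333). After adjustment over the 6 relations computed, the lowest p was 0.0639 for r. Without the 2 mice farthest from the median of Aqp2, r was 0.0523 in vehicle-treated mice, where the relation rests on those mice, and 0.852 in SK-124-treated mice. For Aqp2 with Aqp4, r was 0.941 in vehicle-treated mice (exact permutation p = 0.0319, adjusted 0.0639, rho 0.771, p = 0.103) and -0.465 without the 2 mice, and 0.721 in SK-124-treated mice (exact permutation p = 0.0986, adjusted 0.118, rho 0.714, p = 0.136) and 0.524 without them. For Aqp2 with Avpr2, r was 0.331 in vehicle-treated mice (exact permutation p = 0.572, adjusted 0.572, rho 0.0286, p = 1.0) and -0.796 without the 2 mice, and 0.760 in SK-124-treated mice (exact permutation p = 0.0986, adjusted 0.118, rho 0.714, p = 0.136) and 0.579 without them.

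The genes whose deviations from their group means were most like those of Aqp2 over the 12 mice, of 9890 genes averaging 5 CPM or more, were Bcam (r = 0.973), Hspa1b (0.950), Tmem30b (0.949), Adora1 (0.944) and Mta3 (0.944). None of the 5 passed the test between groups. For Avpr2 they were Gmeb2 (0.949), Tmem106c (0.895), Khdrbs3 (0.891), Glt8d1 (0.889) and Chd1l (0.880), and of these Gmeb2 was called, higher with SK-124 (0.22, FDR 0.0236). These values describe 12 libraries that share a group mean and a scaling, and Hspa1b has a near-identical copy that can share its reads.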

How the data were processed

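Whole-kidney mRNA of 12 mice (6 per group, from the titles) was sequenced on a BGISEQ-500 instrument. The authors deposited 1 RSEM gene table per mouse that holds expected counts (RSEM's estimate of the reads from each gene, not normalized) and TPM, scaled by RSEM to effective length and a fixed total. The submitters' processing notes list FastQC, STAR 2.7.2b, RSEM 1.3.0, DESeq2 and the build mm10, and use of strand is not stated. The deposited length, effective length and posterior SD of the count, in the same tables, are other per-gene values, and FPKM was not used.

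Symbols were taken from GENCODE M21 (GRCm38). It shares 54349 of the 55401 versioned identifiers, and 55141 once versions are dropped. Aqp4 matched without its version, so its coordinates are not given. Promoters came from RefSeq (GRCm38.p6), which had entries for 8 of the 9 genes.

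Expected counts were rounded, scaled with TMM and filtered with filterByExpr. The groups were compared by edgeR's quasi-likelihood F test with no block, Benjamini-Hochberg adjustment over 14159 genes. The SE was taken from the F statistic (log2 fold change over root F), and 95% intervals use the t distribution with the fit's degrees of freedom. For single values, exact permutation tests (two-sided) used log2(CPM + 0.5). The fit was tested on simulated counts. The biological coefficient of variation was 0.101. Depth (19244227 to 19771802 counts) limits mainly genes with few counts.

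The genes described and all lists were chosen with earlier results of these data known. The genes named are the 9 genes, up to 4 called genes per direction of each pathway list by smallest p, the 5 genes most alike to Aqp2 and to Avpr2, and annotated neighbours. Genes named outside this rule (Gnas, Adcy6, Creb1, Crtc2, Elf3, Gata3, Nfat5, Scnn1a, Scnn1g, Slc14a2 and the markers) were chosen after their values were seen. The labels number mice 1 to 6 in each group, but same-numbered mice are different animals. Their deviations had r between -0.131 and 0.217, over 0.1 in 2 of 6 pairs, so the numbers were not treated as pairs. Over the 30 pairs of mice within a group, chi-square per degree of freedom was at least 4.69, so no library looked deposited more than once within its group. Libraries of different groups were not compared in this way.

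Alternatives were RLE size factors, library totals, DESeq2, the replicate block, unrounded counts, no filter, a minimum of 10 counts per mouse, limma on log2(TPM + 1) and log2(TPM + 0.1), a pseudocount of 0.1 on CPM, and each mouse left out in turn. SK-124-treated mice 1 to 3 or 4 to 6 alone, and Aqp3 as reference, were added after seeing the data. Versions were edgeR 4.0.16, DESeq2 1.42.0 and limma 3.58.1 in R 4.3.3, and scipy 1.17.1, pandas 2.3.3, numpy 2.4.6 and matplotlib 3.10.9 in Python 3.11.15.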

Additional observations from a re-analysis of the deposited data

Results flagged for a closer look

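In 78 groups of 6 values, the highest or lowest mouse was tested for a gap to its nearest neighbour that is large for the group's range (Dixon's test), and 3 stood apart, where about 4 are expected by chance. Vehicle-treated mouse 5 had 143 CPM of Aqp2, with the next highest vehicle-treated mouse at 104 CPM, and the gap took 0.677 of the range. The same mouse had 32.5 CPM of Aqp4, with the next at 18.9 CPM and a gap of 0.756 of the range. Without this mouse the edgeR log2 fold change of Aqp2 was 0.86 (FDR 0.00019) and that of Aqp4 -0.16 (FDR 0.611). Vehicle-treated mouse 3 had 25.7 CPM of Casr, the calcium-sensing receptor, far below the next lowest at 48.3 CPM, with a gap of 0.789 of the range.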

How the results depend on the processing

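Aqp2 and Avpr2 stayed past the threshold in every alternative run. The log2 fold change of Aqp2 was 0.65 to 0.86 with mice left out in turn and 0.58 to 0.86 in the other 11 alternatives, with FDRs up to 0.0282. That of Avpr2 was -1.22 to -1.12 and -1.30 to -0.99, with FDRs up to 7.99e-05. Relative to the 8 principal cell markers, the Aqp2 difference was 0.76 to 0.94 with mice left out and 0.72 to 0.98 in the other alternatives. That of Avpr2 was -1.02 to -0.92 and -1.04 to -0.75. With Aqp3 alone as the reference in place of the markers, the differences were 0.63 for Aqp2 and -1.18 for Avpr2. The call of Aqp11 was lost with RLE (-0.18, FDR 0.0556), with no filter (-0.19, FDR 0.0655) and in SK-124-treated mice 1 to 3 alone (-0.0911, FDR 0.373), and it ranged from -0.22 to -0.13 with mice left out, where 2 of 12 fits kept it. With the replicate block, Aqp11 was at -0.19 (FDR 0.0525), Aqp2 at 0.74 (FDR 0.00132) and Avpr2 at -1.17 (FDR 1.21e-05), 3466 genes were called, no other call among the 9 genes changed, and the ratios to markers had the smallest p that 6 pairs allow, 0.03125; 2 of 6 mice correlated best with their own number.

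Library totals gave 777 genes higher and 3058 lower (20.3% of calls higher, against 44.5% with TMM), a median of -0.12 over all genes, and Aqp7 at -0.37 (FDR 0.0386), Aqp1 at -0.11 and Aqp3 at -0.0077. limma on log2(TPM + 1) and log2(TPM + 0.1) gave 500 and 498 genes higher (19.0% of calls in each), medians of -0.11 and -0.14, and reversed Aqp1 (-0.15 in both), Aqp3 (-0.0588 and -0.0607) and Aqp6 (-0.0258 and -0.0281). Aqp1 was also below 0 with 10 counts required (-0.00021) and in SK-124-treated mice 4 to 6 alone (-0.0102), and Aqp6 in mice 1 to 3 alone (-0.0154). None of these reversed values passed the test in either setting. SK-124-treated mice 1 to 3 alone gave 2298 called genes, 1233 of them lower, and mice 4 to 6 alone gave 1267 lower. These use fewer libraries, and for the other changes the cause was not tested. With mice left out in turn, 2960 to 3942 genes were called (1320 to 1863 higher, 1633 to 2079 lower), and 2 to 3 of the 9 genes. Aqp1 ranged from -0.0143 to 0.0287, Aqp3 from 0.06 to 0.15, Aqp4 from -0.51 to -0.16, Aqp6 from 0.02 to 0.19, Aqp7 from -0.34 to -0.16 and Avpr1a from -0.26 to -0.13. Avpr2 rests on 55 to 199 counts per mouse and Aqp7 on 77 to 175, which limits the precision of both. The labels name no batch.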
